A study of Homo sapiens with 6 samples.

Results

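Messenger RNA of 9 genes of glycogen synthesis and breakdown (GYS1, GBE1, PYGL, PYGB, PGM1, UGP2, PPP1R3B, PPP1R3C and PHKA1) was compared between A375 cells treated with ozonated olive oil (OZO) and with olive oil (OLO). The genes were taken by symbol from a list of glycogen enzymes and regulators, and all 9 were found among the 28395 genes of the deposited comparison table. A375 is an established human melanoma line, labelled wild type and grown in serum-containing medium. The OZO group held 3 libraries of cells kept for 6 h with 0.01% OZO, and the OLO group, the control, 3 libraries of cells kept for 6 h with 0.01% OLO. One line at a single dose and time point was studied, and the labels number the 3 samples of a group without saying whether they came from separate cultures. The study describes its expression data in these cells as coming from independent experiments.

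Glycogen is the branched polymer in which cells store glucose. For its synthesis, phosphoglucomutase converts glucose 6-phosphate to glucose 1-phosphate, UDP-glucose pyrophosphorylase activates it, glycogenin primes the chain, glycogen synthase extends it and the branching enzyme adds branch points. For its breakdown, glycogen phosphorylase, switched on by phosphorylase kinase, releases glucose 1-phosphate, and PPP1R3 proteins bring protein phosphatase 1 to the particle, where it activates the synthase and switches phosphorylase off. Several of these genes, GYS1, GBE1 and PPP1R3C among them, are known targets of the hypoxia-inducible factors, which bind a DNA core written ACGTG or GCGTG.

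The mean library size implied by the lowest values of the table was 18409902 counted fragments. Genes without reads had a log2 fold change of 0.33, or 1.26-fold. The library sizes used for scaling were therefore larger in OLO than in OZO by about that factor, and all fold changes rest on this scaling. The depth of single libraries is unknown, and no value of a single library was analysed here, so each gene is given by its level in each group, by the standard error (SE) and 95% interval of its log2 fold change, and by the adjusted p-value. These statistics are the limma-voom results of the deposited table with Benjamini-Hochberg adjustment over all genes, and the threshold for a call was an adjusted p-value under 0.05. Levels are in CPM, counts scaled to library size, as implied by the mean over all libraries and the fold change. In bulk RNA, less of a transcript per cell and fewer cells that express it cannot be told apart. Of 8 melanocyte lineage markers, MITF and SOX10 had means of 499 and 919 reads per library, PMEL had 5.75 and TYR had no read. Of 9 markers of other cell types, KRT14, COL1A1 and PECAM1 had 77.5, 22.3 and 19.5 reads and the other 6 had fewer than 10. By limma-voom 0 of these 17 markers were called, and 0 had an unadjusted p-value under 0.05.

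To set the letters of the promoters beside the changes, the 250 bases before the first annotated start were read from RefSeq (GRCh38.p14) for 4 of the genes. GBE1 and PGM1 are shown because they were the called genes. UGP2 and PPP1R3C are shown because their windows hold the same ACGTG letters as that of GBE1 and they were not called. Sequences run 5′ to 3′ on the strand of the gene, and capitals mark ACGTG or GCGTG on either strand (CACGT and CACGC are the reverse complements). The windows are chr3:81761646-81761895 on the minus strand for GBE1, chr1:63593161-63593410 on the plus strand for PGM1, chr2:63840719-63840968 on the plus strand for UGP2 and chr10:91633072-91633321 on the minus strand for PPP1R3C.
GBE1: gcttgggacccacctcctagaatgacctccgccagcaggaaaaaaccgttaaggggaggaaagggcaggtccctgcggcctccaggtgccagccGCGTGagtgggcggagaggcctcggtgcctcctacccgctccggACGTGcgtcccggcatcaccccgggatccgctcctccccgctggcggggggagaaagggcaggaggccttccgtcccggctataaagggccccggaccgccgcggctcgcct
PGM1: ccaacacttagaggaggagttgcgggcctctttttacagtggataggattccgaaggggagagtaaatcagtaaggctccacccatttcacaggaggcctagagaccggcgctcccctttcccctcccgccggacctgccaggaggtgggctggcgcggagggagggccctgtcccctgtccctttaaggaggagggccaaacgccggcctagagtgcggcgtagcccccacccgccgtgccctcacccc
UGP2: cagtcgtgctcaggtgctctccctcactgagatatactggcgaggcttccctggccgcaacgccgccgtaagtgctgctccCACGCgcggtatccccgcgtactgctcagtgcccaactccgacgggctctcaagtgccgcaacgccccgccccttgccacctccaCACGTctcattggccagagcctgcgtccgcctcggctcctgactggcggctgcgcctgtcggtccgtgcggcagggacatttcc
PPP1R3C: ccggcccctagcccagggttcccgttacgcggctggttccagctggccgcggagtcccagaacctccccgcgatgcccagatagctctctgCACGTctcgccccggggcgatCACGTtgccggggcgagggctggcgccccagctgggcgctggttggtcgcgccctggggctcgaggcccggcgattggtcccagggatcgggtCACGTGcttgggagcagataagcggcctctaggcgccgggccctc

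A window was found for 8 of the 9 genes. ACGTG, searched on both strands, was present in 3 of the 8 (GBE1, UGP2 and PPP1R3C) and in 18.6% of the windows of all 27305 genes with one. GCGTG was present in 5 of the 8 (GYS1, GBE1, PYGB, UGP2 and PHKA1) and in 31.9% of all windows. Either was present in 6 of the 8 and in 43.1% of all. In GBE1, ACGTG began 112 bases and GCGTG 156 bases before the start. UGP2 held ACGTG at 84 and GCGTG at 169 bases. PPP1R3C held 4 matches to ACGTG, at 159, 138, 45 and 44 bases, of which the last 2 overlap in the palindrome CACGTG. The windows of PGM1 and PYGL held neither motif. PGM1 and UGP2 have further annotated starts, whose windows were not searched. Of the called genes, GBE1 held both motifs and PGM1 held neither in the window searched. PPP1R3C had at most 22 reads over all 6 libraries, so the lack of a call there says little. Whether the letters go with the changes was not tested.

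In OZO-treated cells, 2 of the 9 genes were called higher, the branching enzyme GBE1 and the phosphoglucomutase PGM1, and 0 were called lower. Over all genes 3.98% were called higher and 3.06% lower. Among the 13773 genes that averaged at least 10 reads per library (read genes), which include 8 of the 9, 7.75% were called higher, 5.89% lower and 13.6% in either direction. At an unadjusted p-value under 0.05, 3 of the 9 genes had positive fold changes and 1, UGP2, a negative one, beside 10.1% and 9.61% of all genes. Shares are larger among read genes, where 17.6% were lower at that p-value. The share higher was not computed for them. The median log2 fold change of the 9 genes was 0.25, beside 0.19 over all genes. All genes include 14622 that averaged under 10 reads, of which 7012 had no read and a log2 fold change of 0.33. Among read genes the median was 0.29 for the 8 and −0.01 for all. Subtracting the all-gene median from every fold change is termed re-centring, and it turned the share of read genes with a negative fold change from 50.8% to 73%. Centring on the median of the read genes instead changed no call of the 9 genes. These counts and medians are a description, as 9 genes chosen by function carry no test of their own.

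**Figure D1:**
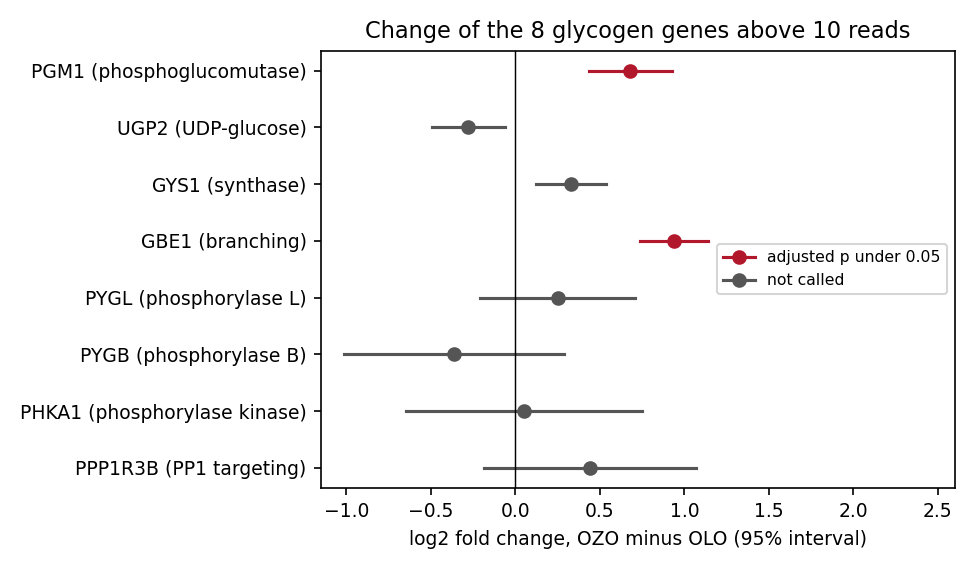
Log2 fold change (OZO minus OLO, x axis) of the 8 genes that averaged at least 10 reads, with bars for the 95% interval from limma-voom and 3 libraries per group. Red marks the called genes, GBE1 at 0.94 and PGM1 at 0.68, and the intervals of PYGL, PYGB, PHKA1 and PPP1R3B cross 0. PHKA1 lies at 0.05 and turns to −0.14 with re-centring on the all-gene median.

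Of PGM1, UGP2, GYG1 and GYS1, which lead glucose 6-phosphate into the chain, only PGM1 was called, and differences between these genes were not tested. PGM1 (chromosome 1, 63593411 to 63660245, plus strand), which interconverts glucose 6-phosphate and glucose 1-phosphate, was at 44.9 CPM in OLO and 71.9 CPM in OZO. Its log2 fold change was 0.68 (SE 0.095, 95% interval 0.44 to 0.92), which is 1.60-fold (1.35 to 1.90), with an adjusted p-value of 0.0231. PGM1 ranked 881 of the 13773 read genes by fold change. An exon of ITGB3BP on the opposite strand overlaps PGM1, and whether counting used strand is not stated. ITGB3BP, with a mean of 904 reads, changed by 0.04 on the log2 scale (adjusted p-value 0.524).

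UGP2 (chromosome 2, 63840969 to 63891560, plus strand), which makes UDP-glucose, the donor for glycogen synthase, was not called. It was at 75.0 CPM in OLO and 61.8 CPM in OZO, with a log2 fold change of −0.28 (SE 0.084, 95% interval −0.49 to −0.06) and an adjusted p-value of 0.145. Its own interval excluded 0, and it passed as lower (−0.47, adjusted p-value 0.0328) with re-centring but not with the read genes as the centre (−0.27, adjusted p-value 0.151). GYG1, the glycogenin that primes the chain, was at 82.3 CPM in OLO and 86.2 CPM in OZO. The 95% interval of its log2 fold change, −0.25 to 0.38, included 0 and left out a 2-fold change in either direction.

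GYS1 (chromosome 19, 48968130 to 48993309, minus strand), the glycogen synthase of muscle and most other tissues, was at 46.3 CPM in OLO and 58.2 CPM in OZO. Its log2 fold change was 0.33 (SE 0.081, 95% interval 0.12 to 0.54), or 1.26-fold (1.09 to 1.45), with an unadjusted p-value of 0.00989 and an adjusted p-value of 0.0925. GYS1 lay near the threshold, since adjustment over the read genes alone gave 0.0487. It was not called with re-centring (0.14, adjusted p-value 0.424) or with the read genes as the centre (0.33, adjusted p-value 0.0883). Before scaling to library size, its implied means were 956 reads per library in OLO and 955 in OZO. GYS2, the liver synthase, had a mean of 13.7 reads per library, against 955 for GYS1.

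GBE1 (chromosome 3, 81489703 to 81761645, minus strand), the branching enzyme, whose loss causes a glycogen storage disease, had the largest fold change of the 8 read genes. It was at 94.6 CPM in OLO and 182 CPM in OZO. The log2 fold change was 0.94 (SE 0.078, 95% interval 0.74 to 1.14), which is 1.92-fold (1.67 to 2.21), with an adjusted p-value of 0.00905. With a mean of 2412 reads per library, GBE1 ranked 503 of 13773 by fold change and was the only gene of the 9 that also passed an adjusted p-value of 0.01. Neither GBE1 nor PGM1 reached a 2-fold change, although the interval of GBE1 included it.

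**Figure D2:**
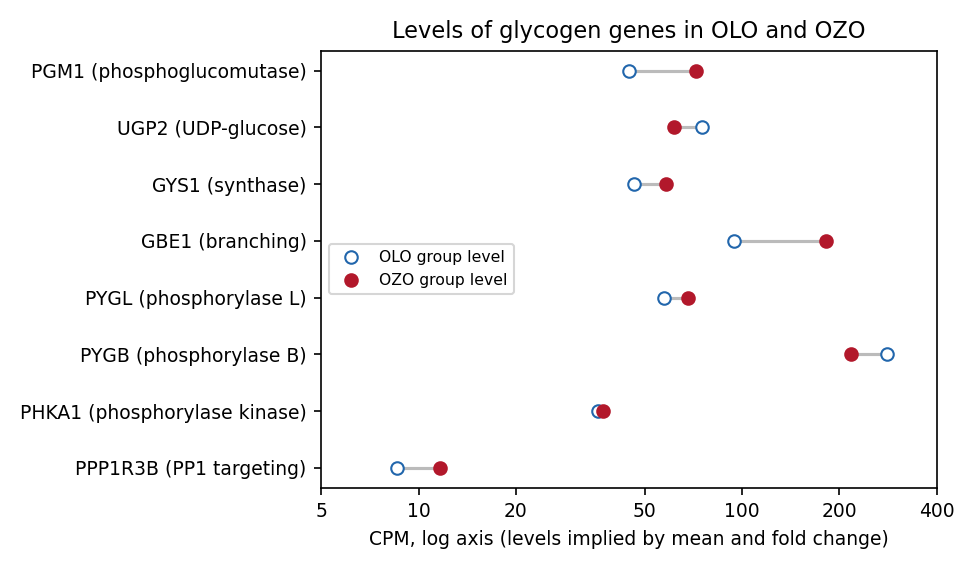
Level of the 8 read genes (mean of at least 10 reads) in OLO (open blue) and OZO (red), in CPM on a log axis, as implied by the mean over libraries and the fold change. GBE1 moves from 94.6 to 182 CPM and PGM1 from 44.9 to 71.9 CPM, while PHKA1 lies at 35.8 and 37.1 CPM.

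Of the enzymes of breakdown, none of the phosphorylases was called. PYGL (chromosome 14, 50905217 to 50944483, minus strand), the liver isoform, was at 57.3 CPM in OLO and 68.2 CPM in OZO, with a log2 fold change of 0.25 (SE 0.18, 95% interval −0.21 to 0.71) and an adjusted p-value of 0.355. PYGB (chromosome 20, 25248085 to 25298012, plus strand), the brain isoform, was at 280 CPM in OLO and 218 CPM in OZO, with −0.36 (SE 0.25, 95% interval −1.02 to 0.29) and an adjusted p-value of 0.345. The point estimates of both isoforms have opposite signs, yet their intervals overlap and the difference between them was not tested. For PYGB the interval reached from 0.494-fold to 1.22-fold, so neither a fall of nearly 2-fold nor a small rise was excluded.

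PHKA1 (chromosome X, 72578814 to 72714306, minus strand), the muscle-type alpha subunit of phosphorylase kinase, had nearly the same level in both groups, 35.8 CPM in OLO and 37.1 CPM in OZO. Its log2 fold change was 0.05 (SE 0.27, adjusted p-value 0.913) and turned to −0.14 with re-centring, but stayed at 0.06 with the read genes as the centre. The 95% interval ran from 0.637-fold to 1.68-fold, and that width is part of the result. Fold changes of PHKA1, PYGB and PPP1R3B had SEs of 0.27, 0.25 and 0.24, larger than those of 80.4%, 78.1% and 76.9% of read genes. Those of GBE1, GYS1, UGP2 and PGM1 lay between 0.078 and 0.095, below the median SE of 0.125. The precision did not follow depth, since PYGB had the most reads of the 9 genes, with a mean of 4549.

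The other subunits of phosphorylase kinase give PHKA1 its context. By limma-voom 0 of the 5 alpha, beta and gamma subunit genes, PHKA1 included, were called, and 2 had an unadjusted p-value under 0.05. All 5 had positive fold changes, of which 3 stayed positive with re-centring. PHKA2, the liver-type alpha subunit, had a log2 fold change of 0.19 (SE 0.039) and an adjusted p-value of 0.0516. PHKG2, a catalytic gamma subunit, had 0.37 (SE 0.081) and 0.0682. With adjustment over the read genes alone, PHKA2 and PHKG2 passed, at 0.0266 and 0.0355. The share of all read genes that passed this way was not computed. With re-centring PHKA2 fell to 0.009 (adjusted p-value 0.890) and PHKG2 to 0.18 (adjusted p-value 0.279). With the read genes as the centre, PHKA2 passed (0.20, adjusted p-value 0.0479) and PHKG2 did not (0.37, adjusted p-value 0.0652). PHKB and PHKG1 had 0.13 and 0.57, with adjusted p-values of 0.736 and 0.274. Calmodulin is the fourth subunit, and CALM3, which encodes it, was lower, from 159 to 120 CPM (log2 fold change −0.41, SE 0.049, adjusted p-value 0.0171). Calmodulin genes have processed pseudogenes that can share reads with them, which makes single calmodulin values less certain. CALM2 had −0.16 with an adjusted p-value of 0.353.

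PPP1R3B (chromosome 8, 9136255 to 9151539, minus strand), which brings protein phosphatase 1 to glycogen, was weakly expressed, at 8.59 CPM in OLO and 11.7 CPM in OZO. Its log2 fold change was 0.44 (SE 0.24, 95% interval −0.19 to 1.07) with an adjusted p-value of 0.249, so the interval held both no change and a 2-fold rise. PPP1R3C (chromosome 10, 91628442 to 91633071, minus strand), another targeting subunit, was at the limit of detection. The table's values for PPP1R3C allow a total of 4, 6, 8 or 22 reads over all 6 libraries, found in 1 to 3 of them. Both groups had implied means under the floor of 3 reads per library, so no fold change is given.

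By limma-voom 0 of the 7 PPP1R3 genes were called, and 1 had an unadjusted p-value under 0.05. That gene was PPP1R3D, named here after its values were seen, at 7.24 CPM in OLO and 3.48 CPM in OZO, with a log2 fold change of −1.06 (SE 0.31, 95% interval −1.86 to −0.25) and an adjusted p-value of 0.141. PPP1R3A and PPP1R3G had 1 read each over all libraries. Of the catalytic subunits, PPP1CC was called higher at a small size, from 564 to 629 CPM (log2 fold change 0.16, SE 0.028, adjusted p-value 0.0397), which became −0.03 and uncalled with re-centring but stayed called at 0.16 (adjusted p-value 0.0363) with the read genes as the centre. PPP1CA and PPP1CB had −0.10 and −0.16 and were not called.

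Levels were also compared between genes, per kilobase of merged exons. PYGB was the highest of the 9 genes, at 55.5 CPM per kilobase, followed by GBE1 at 28.2. PGM1, PYGL, GYS1 and UGP2 followed at 13.9, 13.8, 12.2 and 10.0 CPM per kilobase. PHKA1 was at 5.74 and PPP1R3B at 1.74 CPM per kilobase. The spread of these levels over libraries is not in the table, and the order within the group from PGM1 to UGP2 changed with the gene length used, PYGL then being first at 22.3 CPM per kilobase of its longest transcript. Within families, PYGB was 4.03 times as high as PYGL per kilobase (2.69 times with the longest transcripts), and the muscle isoform PYGM was at 0.205 CPM per kilobase. GYS1 was 50.9 times as high as GYS2, and PHKA1 was 2.1 times as high as PHKA2 (1.26 times with the longest transcripts). The mRNA of PGM2 was 2.85 times as high as that of PGM1 (2.13 times with the longest transcripts). Enzyme activities were not measured, so these levels do not say which enzyme carries the phosphoglucomutase step. PGM2, at 153 CPM in OLO and 140 CPM in OZO, was not called (log2 fold change −0.13, adjusted p-value 0.249), in contrast to PGM1.

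**Figure D3:**
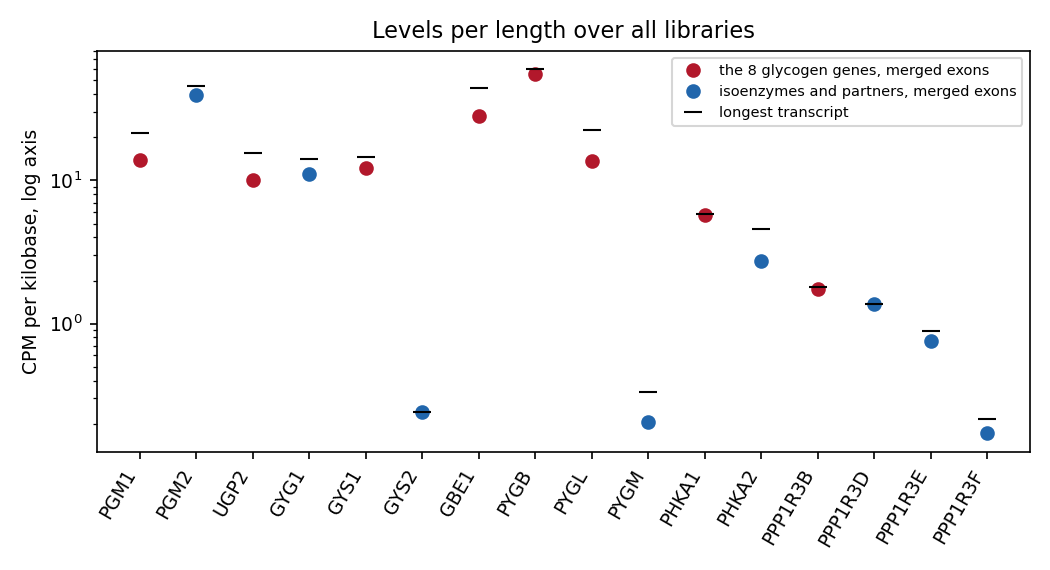
Level over all libraries in CPM per kilobase (log axis) of 8 of the glycogen genes (red) and of isoenzymes and partners (blue), with dots for merged exons and bars for the longest transcript. PYGB is highest at 55.5 CPM per kilobase, and GYS2 and PYGM lie far below their isoenzymes, at 0.240 and 0.205.

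The wider pathway was read from lists of 42 other genes. Of these, 5 were called, 1 higher (PPP1CC) and 4 lower (CALM3, PRKAB1, PRKAG2 and PASK). Among the 34 read genes of the lists that is 14.7%, close to the 13.6% of all such genes, and their median log2 fold change was −0.08. Of those 34 genes 13 had positive and 21 negative fold changes, against 5 and 29 with re-centring, under which 73% of all read genes were negative. With the read genes as the centre 13 were positive. By limma-voom 0 of the 5 other synthesis genes, 0 of 4 genes of glucose 6-phosphate release, 0 of the 2 lysosomal and autophagic genes and neither EPM2A nor NHLRC1 were called, and 0 of these 13 had an unadjusted p-value under 0.05. GYG2, G6PC1, G6PC2 and PRKAG3 had no read in any library. A single empty library of the mean size leaves room for an expected count of up to 3 reads, or 0.163 CPM. All libraries together leave room for less.

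Among the kinases, 3 of 12 genes were called and all 3 were lower. AMP-activated protein kinase (AMPK) senses energy shortage and phosphorylates glycogen synthase, and 2 of its 7 subunit genes were lower and 0 higher, with 4 lower and 0 higher at an unadjusted p-value under 0.05. Over all read genes 5.89% were called lower, and 17.6% were lower at that unadjusted p-value. PRKAB1, a beta subunit with a glycogen-binding domain, was at 31.9 CPM in OLO and 23.3 CPM in OZO (log2 fold change −0.45, SE 0.060, adjusted p-value 0.0209). PRKAG2, a gamma subunit whose mutations cause glycogen storage in the heart, was at 20.9 CPM in OLO and 12.9 CPM in OZO (−0.70, SE 0.11, adjusted p-value 0.0326). PRKAB1 and PRKAG2 were at 4.52 and 0.991 CPM per kilobase, below their isoforms PRKAB2 at 14.9 and PRKAG1 at 28.4. PRKAB2 (0.03, adjusted p-value 0.825) and PRKAG1 (−0.22, adjusted p-value 0.159) were not called. Of the 6 AMPK read genes, 4 had negative and 2 positive fold changes. PASK, a kinase that acts on glycogen synthase, was lower by less, from 15.0 to 13.2 CPM (−0.19, SE 0.034, adjusted p-value 0.0414). The glycogen synthase kinases GSK3A and GSK3B had 0.02 and 0.16 and were not called.

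**Figure D4:**
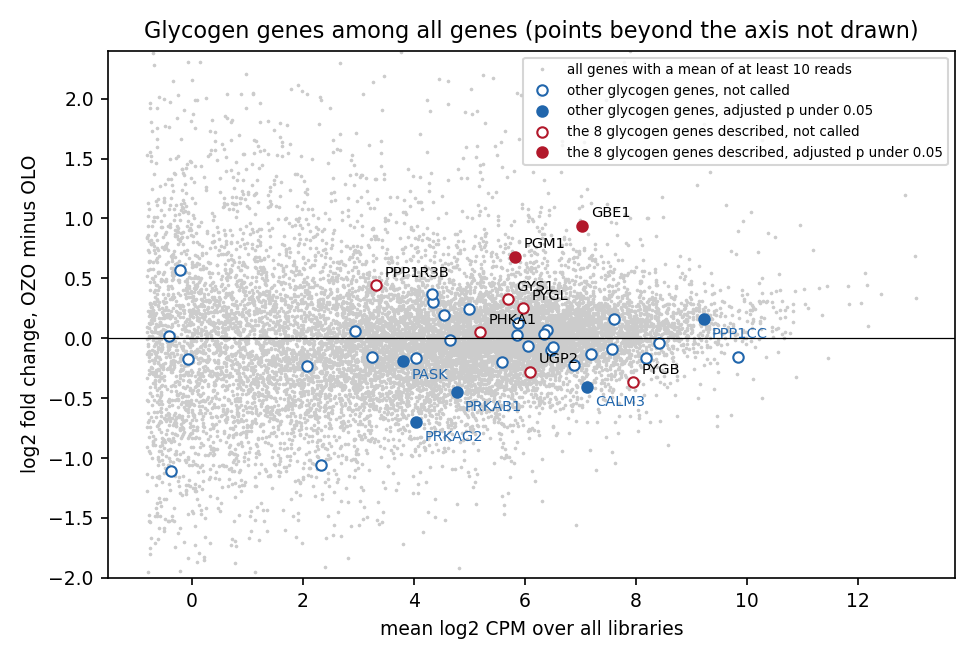
Log2 fold change (OZO minus OLO) against mean log2 CPM for all read genes (grey, 72 of 13773 lie outside the axis), the 8 glycogen genes (red) and 34 other glycogen genes (blue), filled where called. GBE1 and PGM1 lie in the upper part of the cloud, at ranks 503 and 881 of 13773, PRKAG2, PRKAB1, CALM3 and PASK lie below 0, and PPP1CC, at 0.16, turns to −0.03 with re-centring on the all-gene median.

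Glycolysis, which shares glucose 6-phosphate with glycogen metabolism, gives a scale for these values. Of 18 glycolysis and glucose uptake genes, 12 were called higher and 0 lower. All 18 fold changes were positive, with a median of 0.59 on the log2 scale. Over all read genes 7.75% were called higher, 5.89% were called lower and 49.2% had positive fold changes. The fold changes of GBE1 and PGM1 lie above that median and those of the other read genes among the 9 below it. The difference between both lists was not tested.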

How the data were processed

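RNA-seq libraries of OLO-treated and OZO-treated A375 cells were prepared with a directional kit. The authors aligned reads to hg38 with HISAT2 2.1.0, counted them per gene with featureCounts 2.1.1 and fitted limma-voom 3.58.1. Scaling factors, filters and the strand setting are not given in the sources used here. The deposited log2 columns hold the fold change, read as OZO minus OLO from the name of the comparison, and the mean log2 CPM. The deposited score is the moderated t, and the deposited p-value was used as given, plain and adjusted. No test across libraries was run here.

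In Python 3.11.15 with scipy 1.17.1, SE was taken as fold change over t, with intervals from the degrees of freedom that link t and p (5.02 to 5.24). As voom adds 0.5 to each count, the lowest mean, shared by 7012 genes, corresponds to no read, and reads per library were derived from it. A group's CPM is the mean shifted by 0.5 times the fold change. It is approximate because voom weights libraries. The derivations were tested on simulated counts fitted with limma in R 4.3.3. Lengths came from GENCODE 44, matched by Ensembl identifier. Positions and promoters came from RefSeq (GRCh38.p14), matched by gene number and by symbol. All 9 genes matched for lengths and positions and 8 for promoters, and the 4 printed windows were identical to hg38.

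The 9 genes and all lists were chosen with earlier results of these data known. The text names all 9 genes and, of the other glycogen lists, genes with an adjusted p-value under 0.05 and those with a mean under 1 read, while glycolysis genes are given by counts and median only. It adds markers of cell types, and isoenzymes, subunits and partners of the 9 genes and of other called genes after their values were seen. Some genes of the lists are counted but not reported by name.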

Additional observations from a re-analysis of the deposited data

How the results depend on the processing

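No paired analysis was possible because the table holds the comparison only. Leaving out each replicate was not run for the same reason, so how far 1 library decides a value is unknown.

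The 2 called genes became 1 (GBE1) at an adjusted p-value under 0.01 and 0 with a 2-fold minimum. They became 3 at 0.1 or with adjustment over the genes averaging 10 reads or more, which add GYS1. They became 3 with re-centring on the all-gene median, which adds UGP2 as lower. Shares of all genes called at 0.01, at 0.1 or with the 2-fold minimum were not computed. The share under adjustment over the genes averaging 10 reads or more was not computed either. The counts at those settings therefore have no background beside them. Of the 42 other glycogen genes, the 5 calls became 0 at 0.01, 0 with a 2-fold minimum and 10, all lower, with re-centring, which subtracts 0.19 from every log2 fold change. Of all genes averaging 10 reads or more, 17.3% were then called lower, against 5.89% without it. Centred on the median of those genes instead, 6 of the 42 were called, 2 higher and 4 lower. Of all genes averaging 10 reads or more, 7.98% were then called higher and 5.69% lower. Re-centring reversed PHKA1 (−0.14) and PPP1CC (−0.028), neither then called, and 25 of 28 fold changes recomputed with either centre kept direction and call. The median of the 9 genes, 0.25, became 0.065 with it, 0.26 when the centre was taken from genes averaging 10 reads or more, and 0.29 without PPP1R3C, a choice made after seeing the data. Longest transcripts in place of merged exons changed levels per kilobase, with PYGB and GBE1 first and second under both.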
